A study of Mus musculus with 10 samples.

Results

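Of 65779 kept cortical cells from 10 E16.5 mouse embryos, 107 carried transcripts of at least 2 of the subplate markers Nxph4, Cplx3, Ctgf and Moxd1 together with those of a glutamatergic cortical neuron. A cell was kept when it held at least 1000 unique molecular identifiers (UMIs, each standing for 1 captured transcript) and at most 10% of them came from mitochondrial genes. It then had to hold at least 1 UMI of Tbr1 or Neurod6, 2 transcription factors of excitatory cortical neurons, at most 1 UMI of Dlx1, Dlx2 and Dlx5 together, which mark inhibitory neurons, and none of Cldn5 and Col1a1, which mark vessels and meninges. This gate left 40187 cells, called glutamatergic here because of it, and the rule on the 4 markers left the 107. The members were thus chosen by their UMI counts of these genes, so those counts are not tested below. They are called subplate-like cells here because of this rule, and many of them also carried markers of other cell types.

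Single-cell RNA-seq libraries (10x Genomics 3′, version 3 chemistry) were made from the dissected cortex, 1 library per embryo. The 3 WT embryos were Gatad2b +/+, the 4 Het embryos were Gatad2b stop/+ and the 3 KO embryos were Gatad2b stop/stop, all on a C57BL/6N-Atm1Brd background. The stop allele is a constitutive gene trap between the first coding exons of Gatad2b, which encodes the p66-beta subunit of the NuRD chromatin remodelling complex, so every cell of a mutant embryo carries it. The library names share one prefix in WT 1 to 3 and Het 4 (4 libraries) and another in Het 1 to 3 and KO 1 to 3 (6 libraries). WT and KO thus share no prefix, and a fit with the prefix as a covariate compares them through the Het embryos alone. Kept cells per embryo numbered 5147 to 8103, with a median of 10795 to 17077.5 UMIs per cell. Of the kept cells 993 (1.51%) had a cell barcode that also occurred in another library, and 2 of these were subplate-like.

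The subplate is the deepest and earliest-born tier of neurons in the developing neocortex. Its neurons form the first functional circuits of the cortical wall, receive waiting thalamic axons, and send pioneer axons towards the thalamus, and many of them die after birth. In the mouse they lie next to layer VI, share with it transcription factors such as Tbr1 and Tle4, and are told from it by secreted and synaptic genes that include the rule's markers. Nxph4 (neurexophilin 4) is a secreted ligand of neurexins, Cplx3 (complexin 3) a regulator of SNARE-driven vesicle release, Ctgf (connective tissue growth factor, also named Ccn2) a matrix-associated secreted protein, and Moxd1 a monooxygenase-like protein related to dopamine beta-hydroxylase. On GRCm38, Nxph4 lies at chr10:127525473-127534559, Moxd1 at chr10:24223517-24302790, Ctgf at chr10:24595442-24598683 and Cplx3 at chr9:57599992-57606281.

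Among the 107 cells the rule was met almost entirely by Nxph4 and Ctgf. Nxph4 was detected in 101 cells with 235 UMIs in all, and Ctgf in 91 cells with 220 UMIs. Cplx3 was detected in 13 cells with 23 UMIs and Moxd1 in 11 cells with 14 UMIs. The pair Nxph4 and Ctgf alone qualified 83 cells, Nxph4 with Moxd1 9, Nxph4 with Cplx3 7, Cplx3 with Ctgf 4 and Ctgf with Moxd1 2. In all, 105 cells held exactly 2 of the markers and the other 2 held 3. At the edge of the rule, 33 members held exactly 1 UMI of each of 2 markers, and 5503 gated cells just outside it held exactly 1 marker. These detections are the rule itself and are given as a description.

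The breadth of the markers across the gate differed by more than an order of magnitude. Nxph4 was detected in 13.3% of gated cells, Ctgf in 0.667%, Moxd1 in 0.207% and Cplx3 in 0.0846%. Of the 268 gated cells with Ctgf 31.7% held Nxph4, against 13.1% of gated cells without Ctgf. Cells with Ctgf were deeper, with a median of 25193.5 UMIs against 17112 in those without. How many members would arise from separate detection of a broad gene was not tested. At least 2 of the rule's markers were found in 0.266% of gated cells. For the background from free RNA and mixed droplets, the same count was made in cells that should lack subplate transcripts: among cells with at least 3 UMIs of Dlx1, Dlx2 and Dlx5, 7 of 15891 (0.0441%) held at least 2 of the markers, at a median of 9319 UMIs against 17150 in the gate. The share was 9 of 1919 (0.469%, exact binomial 95% interval 0.215% to 0.888%) in erythroid cells, with at least 10 UMIs of 2 of 3 erythroid genes and a median of 10858 UMIs, and 1 of 311 (0.322%) in microglia. The gate's own share of 0.266% thus lay above that of inhibitory cells and was not above that of the erythroid cells and microglia. The erythroid and microglia sets were chosen by their own genes alone. Gated and vascular cells were not excluded from them, so they give no clean measure of free RNA. Ctgf is also a vascular gene, and 38 of 449 cells with at least 2 UMIs of Cldn5 (8.46%) held at least 2 of the markers, with Ctgf in 32.5% of them. This is the class that the gate's limit on Cldn5 and Col1a1 removes. Subplate-like cells were deep, with a median of 26532 UMIs against 16926 in gated cells with none of the markers.

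The 107 cells were a mixture when read by marker lists of other cell types. Cajal-Retzius cells, the reelin-secreting neurons of layer I, are marked here by Reln, Trp73, Lhx5 and Lhx1, and 22 of the 107 cells held at least 2 of these genes, 20 of them all 4. Radial glia, the neural stem cells of the cortex, are marked by Pax6, Sox2, Hes1, Hes5, Vim, Fabp7 and Slc1a3, and 27 cells held at least 4 of these 7 genes, of which 2 were already among the 22 and 25 were counted as the radial glia class. The remaining 60 cells met neither criterion. In CPM (a gene's UMIs scaled to the same total in every set of cells) over all embryos, Reln stood at 3255 in the 22 cells, at 44.1 in the 60 and at 49.9 in gated cells with none of the rule's markers. Trp73 and Lhx5, which define Cajal-Retzius cells, were at 0 in the 60 cells. Fabp7 stood at 6162 CPM in the 25 cells, at 44.1 in the 60 and at 223 in gated cells with no marker. The classes were made with these genes, so their levels describe the split and are no test of it.

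**Figure D1:**
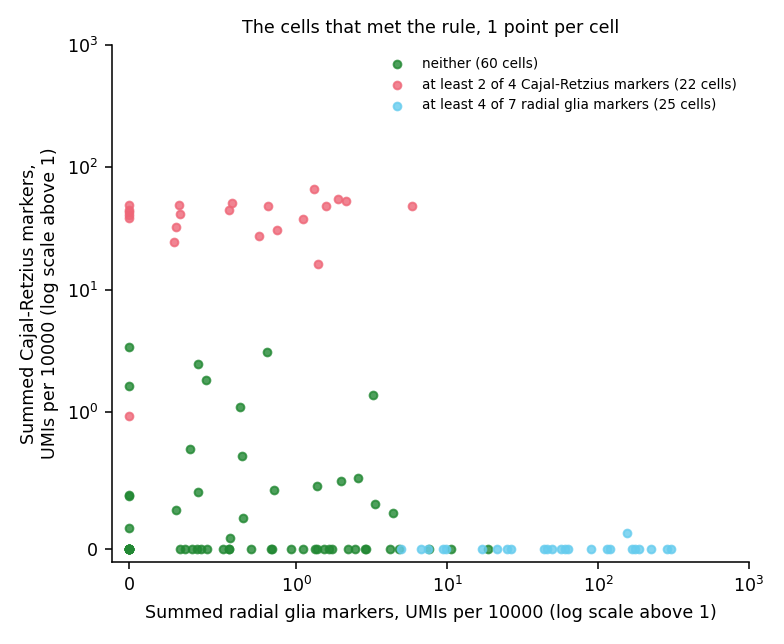
The 107 cells that met the rule, 1 point per cell, by the summed level of the 7 radial glia markers (x axis) and of the 4 Cajal-Retzius markers (y axis), both in UMIs per 10000 UMIs of the cell on axes that are logarithmic above 1. The 22 cells with Cajal-Retzius markers and the 25 with radial glia markers mostly lie along different axes. The other 60 cells reach 3.4 on the y axis and 18.6 on the x axis, beyond the lowest of the 25 at 4.94, and 1 of the 22 lies at 0.976 on the y axis.

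These 3 classes were found in most embryos. The 60 cells numbered 11, 7 and 4 in WT 1 to 3, then 6, 7, 8 and 9 in Het 1 to 4, and 1, 3 and 4 in KO 1 to 3. The 22 cells with Cajal-Retzius markers numbered 0 to 6 per embryo and the 25 with radial glia markers 0 to 6. Nxph4 and Ctgf qualified all 22 of the former, 17 of the latter and 44 of the 60. In gated cells with at least 3 of the 4 Cajal-Retzius markers, 52.0% held Nxph4 and 21 of 658 (3.19%) met the rule on the 4 subplate markers. Of the 13 cells with Cplx3, 12 were among the 60. Summed over the 4 Cajal-Retzius genes, subplate-like cells ranged from 54.2 to 1900 CPM across embryos (median 977), against 41.8 to 97.1 in gated cells with no marker, and in the 60 cells from 0 to 175. Summed over the 7 radial glia genes they ranged from 66.3 to 5320 CPM (median 3728), against 337 to 591, and in the 60 cells from 43.2 to 358. Scores for mixed droplets, cut at a set share of each library, marked 19 of the 107 (17.8%), against 6.59% of all kept cells. By class they marked 2 of 22, 8 of 25 and 9 of 60. The automatic threshold on the same scores marked 0% of the 107 and 0.743% of kept cells. Kept cells were shallower, at a median of 13874 UMIs against 26532. The part of mixed droplets in the membership was not tested beyond the counts given below without the marked cells. Results on genes are therefore given for all 107 cells and, for most of them, again without the 47 cells of the Cajal-Retzius and radial glia classes. The remaining 60 were screened for these classes alone: in single embryos they held up to 1851 CPM of the summed mural or meningeal markers and up to 343 CPM of the microglia markers, with 2 cells of at least 50 UMIs of the mural gene Rgs5. That second set was chosen after its values were seen and is given as counts and sizes.

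Further subplate genes that the rule did not use were read next. Their list was chosen with earlier results of these data known, so it describes the cells and is no independent test of the label. The list held 16 genes: the nuclear receptor Nr4a2 (Nurr1), the zinc transporter-like Tmem163, the lysophosphatidic acid receptor Lpar1, the dopamine receptor Drd1, the cadherin Cdh10, the lipid phosphatase Inpp4b, the actin-binding Svil and Pls3, the potassium channel beta subunit Kcnab1, the GABA-A receptor subunit Gabra5, the adrenergic receptor Adra2a, the protease inhibitor Serpini1, the transcription factors Nfe2l3 and Lmo3, the heparan sulfate enzyme Hs3st4 and the netrin receptor Unc5c. A subplate-like cell held a median of 7 of the 16, against 2 in cells with no marker, 3 in cells with 1 marker and 4 in layer VI-like cells (4901 gated cells with both Tle4 and Foxp2 and under 2 subplate markers). The 60 cells held a median of 10, the 22 with Cajal-Retzius markers 3 and the 25 with radial glia markers 4. Among cells with 10000 to 25000 UMIs the medians were 2, 2 and 4 for no marker, 1 marker and layer VI-like, and 9 over 45 subplate-like cells. Within this window the subplate-like cells were still deeper, with a median of 20788 UMIs against 16621 to 17063.5 in the other 3 sets.

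The median summed level of the 16 genes followed the same order of sets, though single embryos did not all follow it. Per embryo it was 347 to 475 CPM in cells with no marker (median 428.7), 492 to 596 in cells with exactly 1 (median 545) and 790 to 940 in layer VI-like cells (median 873). In subplate-like cells it was 1038 at the median and ran from 266 in KO 1, below the lowest embryo of the no-marker cells, to 1674. In the 60 cells it ran from 377 to 2429, with a median of 1838. KO 1 was again the lowest, with 1 such cell. Its other members were 2 cells of the Cajal-Retzius class and 3 of the radial glia class.

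**Figure D2:**
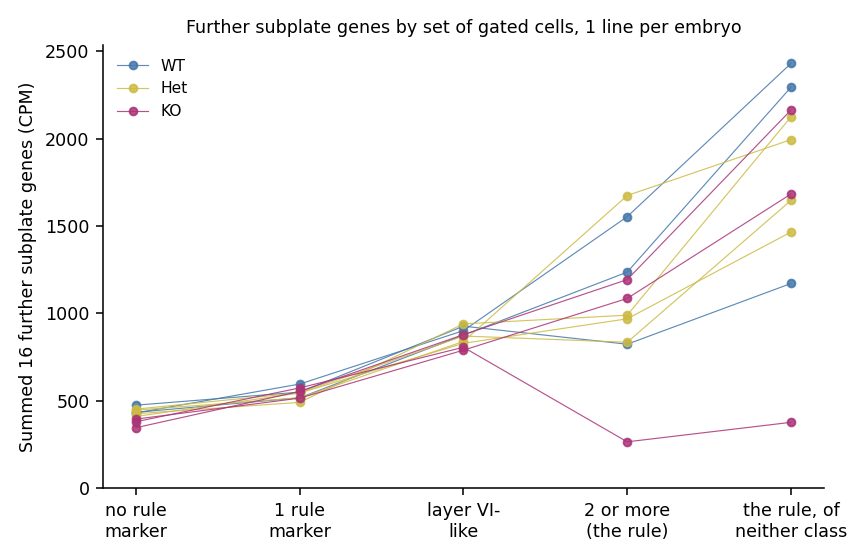
Summed level of the 16 further subplate genes in CPM (y axis) for gated cells with no marker, with exactly 1, layer VI-like cells, all subplate-like cells and the 60 of neither the Cajal-Retzius nor the radial glia class (x axis), with 1 point and 1 line per embryo, coloured by genotype. The subplate-like cells run from 266 to 1674 CPM, and their lowest embryo, KO 1, lies below the no-marker range of 347 to 475.

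Single genes did not all climb with the number of markers. Among cells of 10000 to 25000 UMIs, Hs3st4 stood at 48.1 CPM with no marker, 153 with 1 and 265 with at least 2, a climb in steps. Kcnab1 stood at 4.89, 8.95 and 103 CPM, with nearly all of the difference at the last step. Nr4a2 stood at 70.5, 35.4 and 160 CPM, lower in cells with 1 marker than in cells with none, and Unc5c had the same shape at 23.8, 12.3 and 90.7. Cells with a single marker were mostly Nxph4 cells, and they differed from the subplate-like cells in these genes.

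To ask which genes set the subplate-like cells apart, UMIs were summed per embryo over them and over gated cells with none of the rule's markers, and the sums were compared by the quasi-likelihood test of edgeR with the embryo as a block. Calls needed a Benjamini-Hochberg adjusted p under 0.05 and a change of over 1 on the log2 scale in either direction. Of 13741 genes tested, 1285 were called (9.35%), 998 higher (7.26%) and 287 lower (2.09%) in subplate-like cells. Of the 16 further subplate genes, 12 were higher and none lower, with a median log2 fold change of 1.89 against -0.04 over all genes tested. The list was chosen with earlier results known, so these counts describe the cells and do not test the label. Without the 47 cells 14 of the 16 were higher and none lower, 11 of the 12 among them, and among cells of 10000 to 25000 UMIs also 14. Over all genes the removal of the 47 cells gave 1060 calls, 539 higher and 521 lower, against 998 and 287 in the full set. Lower calls were thus more numerous in that fit, and list counts without the 47 cells are to be read beside these totals. All 12 stayed called with DESeq2's Wald test, without the droplets scored as mixed, with the WT embryos alone and without any 1 embryo. With limma on each embryo's own log2 difference, where an embryo of few cells weighs as much as one of many, 3 of the 12 stayed called (Cdh10, Hs3st4 and Nfe2l3), and 1387 genes were called in all, 245 higher and 1142 lower.

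Kcnab1 had one of the larger changes of these genes but was not higher in every embryo. In CPM scaled by the trimmed mean of M values (TMM), its level in subplate-like cells was 0 to 103 across the 10 embryos with a median of 49.0, the 0 being KO 1, against 3.7 to 7.0 in cells with no marker. Its log2 fold change was 3.08 ± 0.29 (SE, adjusted p = 1.33e-07). Cdh10 stood at 41.4 to 192 CPM (median 106), against 28.7 to 56.7, with a log2 fold change of 1.39. Cdh10 overlapped between the sets through KO 1 only when embryos are not matched, and was higher in all 10 embryos than in the same embryo's other cells.

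Hs3st4 stood at 5.9 to 315 CPM in subplate-like cells (median 153) and at 26.3 to 56.6 in the others, again with KO 1 lowest, and its log2 fold change was 1.86. Gabra5 stood at 0 to 62.9 CPM (median 40.6) against 4.4 to 20.8, with a log2 fold change of 1.54. Nr4a2 did not pass in the full set, with 17.7 to 156 CPM (median 105) against 49.6 to 98.9 and a log2 fold change of 0.42, and stood at 1.15 without the 47 cells, where it passed. Lmo3 and Unc5c also passed without them, at 1.54 and 1.31 against 0.66 and 0.53 in the full set, and among cells of 10000 to 25000 UMIs.

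Tmem163 had a log2 fold change of 3.20 ± 0.25, with 0 to 186 CPM in subplate-like cells (median 63.9) against 6.3 to 10.8. Its level was 268 CPM in the 22 cells with Cajal-Retzius markers, 32.9 in the 60 and 7.22 in cells with no marker, highest in the first. Without the 47 cells its log2 fold change was 1.93 and it still passed. Svil (2.78) was the one gene of the list called in the full set and not without the 47 cells, with 26.6 CPM in the cells with radial glia markers and 3.53 in the 60. The other called members were Inpp4b (3.24), Lpar1 (3.17), Adra2a (2.35), Pls3 (2.02), Drd1 (1.92) and Nfe2l3 (1.67), and Serpini1 (-0.30) did not pass.

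**Figure D3:**
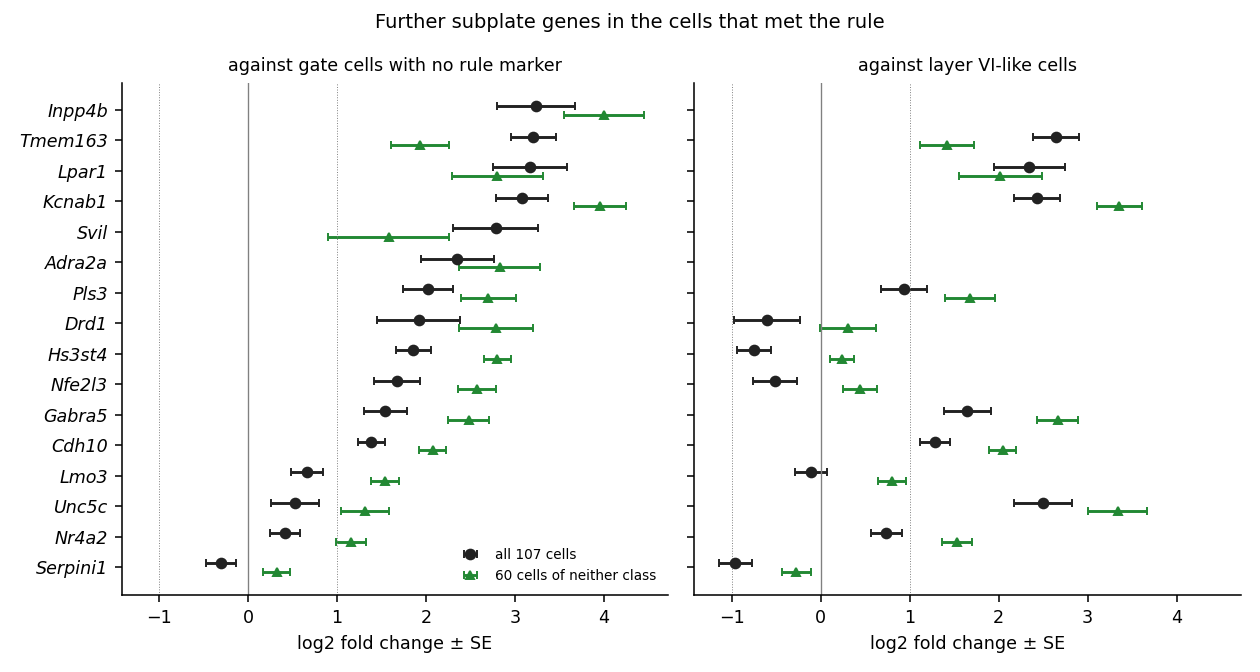
Log2 fold change (x axis) of the further subplate genes in subplate-like cells against gated cells with no marker (left, 16 genes) and against layer VI-like cells (right, the 13 genes tested), for all 107 cells and for the 60 of neither the Cajal-Retzius nor the radial glia class. Bars are an SE derived from edgeR's quasi-likelihood test over 10 embryos (log2 fold change over the square root of F), and dotted lines mark 1 and -1. On the left 12 genes passed with all 107 cells, and Serpini1 lies lowest.

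The promoters of Cdh10 and Gabra5 are shown because both genes were higher in subplate-like cells than in either comparison set, both were lower across the gate in KO embryos, and both have 1 start in the table. Each is 250 bases before to 50 after the RefSeq start, on GRCm38.p6, written 5′ to 3′ on the gene's strand. Capitals mark the E-box CAGATG bound by neuronal basic helix-loop-helix factors and the T-box half-site TCACAC, each on either strand. The Cdh10 promoter lies at chr15:18820079-18820378 on the plus strand and the Gabra5 promoter at chr7:57510010-57510309 on the minus strand.
Cdh10: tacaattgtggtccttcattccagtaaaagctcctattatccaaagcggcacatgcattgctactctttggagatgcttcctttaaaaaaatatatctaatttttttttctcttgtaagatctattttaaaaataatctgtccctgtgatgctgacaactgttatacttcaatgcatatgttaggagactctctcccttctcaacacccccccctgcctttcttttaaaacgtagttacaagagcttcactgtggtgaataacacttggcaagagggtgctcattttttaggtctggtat
Gabra5: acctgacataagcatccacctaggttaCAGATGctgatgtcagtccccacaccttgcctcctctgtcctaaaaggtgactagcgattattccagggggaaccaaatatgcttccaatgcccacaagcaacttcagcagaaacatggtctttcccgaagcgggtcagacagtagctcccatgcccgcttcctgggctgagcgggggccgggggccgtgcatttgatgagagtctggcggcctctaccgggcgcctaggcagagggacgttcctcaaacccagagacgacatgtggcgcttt
Cdh10 held neither motif and Gabra5 held 1 E-box and no T-box. Of 32851 RefSeq promoters of the same length, 17.15% hold the E-box letters and 14.49% the T-box letters. Of the rule's markers and the further genes, 17 of 20 had a promoter in the table, all but Nxph4, Ctgf and Svil.

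Transcription factors of the cortical layers were the next group. Of 22 deep-layer and projection neuron factors, 3 were higher and 3 lower than in other gated cells, beside 7.26% and 2.09% of all genes tested. Tle4, a corepressor of layer VI and subplate neurons, was higher with a log2 fold change of 1.5 ± 0.16 (SE, adjusted p = 7.13e-07): it stood at 101 to 603 CPM (median 293) against 93.2 to 137, and KO 1, the lowest, lay inside the range of the other cells. St18 rose by 1.55 and Ebf3 by 3.36, and Ebf3, a factor of Cajal-Retzius cells, turned to the lower side without the 47 cells, where Nr2f2 (-2.08) and Zfhx4 (-1.92) were also lower, Zfpm2 (1.51) was higher and St18 and Tle4 stayed higher. Lmo4 fell by 1.66, Ldb2, a cofactor of LIM factors in layer V, fell by 1.70 and Tshz2 fell by 1.19. Of 8 upper-layer factors none was higher and 5 were lower: Pou3f1 fell by 2.12, Cux2 fell by 2.09, Rorb fell by 1.51 and Pou3f2 fell by 1.28, with Pou3f3 as the fifth. Cux2, a homeobox factor of layers II to IV, stood at 0 to 65.0 CPM in subplate-like cells (median 10.96), the highest in KO 1, against 51.1 to 78.3. In the fit without the 47 cells 6 of the 8 were lower.

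Secreted and matrix genes held more higher calls than lower ones, and so did all genes tested (7.26% higher, 2.09% lower). Of 18 extracellular matrix and secreted genes 16 were tested, 7 were higher and 1 lower, with a median log2 fold change of 1.15. Igfbp5, an insulin-like growth factor binding protein, stood at 49.7 to 270 CPM in subplate-like cells (median 139) against 5.8 to 13.1, with no overlap between the sets and a log2 fold change of 3.84 ± 0.22 (adjusted p = 9.02e-11). It was at 196 CPM in the 60 cells, 270 in the 25 with radial glia markers and 0 in the 22 with Cajal-Retzius markers, high in both of the former and undetected in the last. Sparc rose by 3.85, Cyr61 by 3.05 and Tnc by 2.23, and none of these 3 was called higher without the 47 cells, where Tnc was called lower. Col11a1 (1.57) and Spon1 (1.48) were, with Sparcl1 and Col25a1 beside them. Fn1 fell by 1.64.

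Of 15 neuropeptides and their receptors 9 were tested, 2 were higher and 4 lower, beside 7.26% and 2.09% of all genes tested. Nxph3, the neurexophilin related to the rule's Nxph4, stood at 55.9 to 197 CPM (median 100.5) against 13.8 to 21.8, without overlap, and its log2 fold change was 2.71 ± 0.17 (adjusted p = 3.02e-10). It was 3.23 without the 47 cells. Cck, the peptide cholecystokinin, rose by 1.19. Npy (-2.71), Sst (-2.87) and Nos1 (-1.47), the neuronal nitric oxide synthase, were lower, with Npy1r as the fourth. Cck and Nxph3 were higher and Npy and Sst the only lower calls in the fit without the 47 cells.

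Most synaptic and excitability genes were not called, which also held for all genes tested, of which 9.35% were (7.26% higher, 2.09% lower). Of 18 presynaptic genes 2 were higher, the vesicle proteins Sv2b (2.55) and Syn2 (1.40), and 2 were lower, Cplx2 (-1.05) and Syt4 (-2.31). Sv2b stood at 0 to 89.4 CPM (median 45.1), with the 0 in KO 1, against 5.57 to 12.03. Without the 47 cells Sv2b had a log2 fold change of 3.35 and Slc17a7, the vesicular glutamate transporter, was called with it, whereas Syn2 was not. Of 18 glutamate and GABA receptor subunits none was higher and 3 were lower, Gria2 (-1.12), Gabra2 (-1.08) and Grin2a (-1.31), and without the 47 cells Gria1, Gabra3 and Gabrb2 were higher and Gabra2 lower. Among voltage-gated channel genes Cacna2d3 (1.20) was called higher and Kcnq3 (-1.55) lower, and without the 47 cells Cacna2d3 and Cacna1e (1.70) were higher and Kcnq3 (-0.85) was not called.

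Axon guidance and survival genes followed, beside shares over all genes tested of 7.26% higher and 2.09% lower. Of 22 axon guidance genes 3 were higher, Unc5b (2.96), Ntn4 (1.87) and Plxnd1 (1.52), and 4 lower, among them Nrp1 (-1.84), Sema3c (-1.61) and Plxna4 (-1.59), with Slit3 as the fourth. In the 60 cells none was higher and 5 were lower, Ntn4 now among them. Of 12 neurotrophin and survival genes none was higher, and Ntf3, which encodes neurotrophin 3, fell by 2.35. Without the 47 cells the apoptosis gene Bcl2l11 (-2.24) was lower with it. Of 15 NuRD subunits none was called in either direction, with 0 of 15 also by the fit without the 47 cells. Of 12 immediate early genes 10 were tested and Egr1 was higher (1.60), and without the 47 cells Junb was (1.05) and Egr1 was not. For the lists of other types, 4 of 4 Cajal-Retzius and 6 of 7 radial glia markers were higher, and without the 47 cells 0 and 0 were higher and 3 and 6 lower, as the choice of cells fixes. All 3 erythroid genes were lower, at 13.6 to 70.5 CPM in sum against 2462 to 5771.

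The genes with the 10 largest increases, among called genes of at least 20 CPM that moved the same way in every embryo, were Plekha7, Igfbp5, Fkbp9, Reln, Syndig1l, Tpbg, Cacna2d2, Pdzd2, Rcan2 and Ripor2, with log2 fold changes of 3.13 to 3.88. Of these 10, 6 were still called without the 47 cells. Ripor2 stood at 42.0 to 106 CPM in subplate-like cells against 4.8 to 8.7, and Pdzd2, a PDZ-domain protein, at 34.2 to 89.4 against 4.5 to 8.5, both without overlap. Their levels in the 60 cells were 51.7 and 74.7 CPM. Reln stood at 49.7 to 1433 CPM, with KO 2 lowest, where no cell had Cajal-Retzius markers, and its log2 fold change went from 3.74 to -0.28 without the 47 cells. Cacna2d2, a calcium channel auxiliary subunit, went from 3.31 to -0.27, Fkbp9 from 3.77 to 0.07 and Plekha7, a junction protein, from 3.88 to 1.01 without a call.

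The 10 largest decreases were Fam19a1, Grp, Nefm, Npy, Nefl, Inhba, Syt4, Fam19a2, Ubash3b and Thsd7a, and all 10 were called without the 47 cells as well. Nefm and Nefl, the medium and light neurofilament subunits, had log2 fold changes of -3.05 and -2.58. Nefm stood at 1.8 to 107 CPM in subplate-like cells (median 12.1), with KO 3 the highest, against 149 to 278, without overlap. Fam19a1, a secreted chemokine-like protein, stood at 0 to 9.7 CPM against 23.3 to 43.6, and Grp, gastrin-releasing peptide, at 0 to 4.1 against 11.1 to 35.8. Both ranges were separate, and the 60 cells held 2.9 and 3.5 CPM of them. Syt4, a synaptotagmin, stood at 45.1 to 360 CPM against 570 to 699.

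Layer VI-like cells were taken as the set most like the subplate, but they are chosen by Tle4 and Foxp2 alone and were themselves mixed. Their summed upper-layer markers had a median of 412 CPM over embryos, against 415 in gated cells with no marker. Layer V markers stood at 374 against 223 and cycling markers at 292 against 102. The same fit against layer VI-like cells tested 11189 genes and called 704 (6.29%), 481 higher (4.3%) and 223 lower (1.99%). Of the further subplate genes 13 were tested: 6 were higher and none lower, with a median log2 fold change of 0.94 against -0.04 over all genes. The 6 were Tmem163 (2.64), Unc5c (2.49), Kcnab1 (2.43), Lpar1 (2.35), Gabra5 (1.65) and Cdh10 (1.28). Unc5c stood at 6.3 to 78.9 CPM in subplate-like cells (median 40.8) against 3.8 to 13.1 in layer VI-like cells, with KO 1 and WT 2 inside the layer VI-like range. In the 60 cells 8 were higher, with Nr4a2 (1.53) and Pls3 (1.68) added, in a fit that called 648 of 10883 genes, 287 higher and 361 lower. With limma on each embryo's own difference 2 of the 6 stayed called, Cdh10 and Unc5c, and 409 genes were called in all, 182 higher and 227 lower. Hs3st4, Nfe2l3 and Lmo3, all raised against gated cells with no marker in the 60 cells, were not called against layer VI-like cells.

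Several deep-layer factors were lower than in layer VI-like cells (all genes tested: 4.3% higher, 1.99% lower). Of 20 tested, 3 were higher, Ebf3 (3.86), Nr2f2 (1.86) and St18 (1.84), and 6 lower: Ldb2 (-1.92), Fezf2 (-1.78), Sox5 (-1.71), Etv1 (-1.24), Tshz2 (-1.24) and Bcl11b (-1.06). Fezf2 and Bcl11b specify subcerebral projection neurons, and Sox5 sets the timing of deep-layer fates. Without the 47 cells St18 was the one higher call, at 2.68, and Bcl11b, at -0.22, was no longer lower. Nr2f2 went from 1.86 to -0.90. Nxph3 had a log2 fold change of 0.53, under the threshold (1.10 and called without the 47 cells), at 58.2 to 210 CPM against 62.2 to 92.5, and Sv2b (1.57), Cck (2.04) and Col11a1 (1.26) were called higher against layer VI-like cells too.

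The largest increases against layer VI-like cells were Reln, Igfbp5, Fkbp9, Cacna2d2, Rcan2, Plekha7, Syndig1l, Zcchc12, Ripor2 and Nhlh2, and 5 of the 10 were called without the 47 cells (Igfbp5, Zcchc12, Ripor2, Syndig1l and Rcan2). Zcchc12 stood at 63.0 to 133 CPM against 7.3 to 16.2, without overlap, with 88.2 in the 60 cells. Nhlh2, a helix-loop-helix factor, was at 1027 CPM in the 22 cells with Cajal-Retzius markers and at 39.4 in the 60, close to the 33.2 of layer VI-like cells. The largest decreases were Npy (-4.33), Kif26a (-3.11), Rorb (-2.51), Lpl, Nts, Arhgap29, Kctd12, Rprm, Dab1 and Ldb2, and the 9 of them tested without the 47 cells were all called there. Kif26a, a kinesin-like protein, stood at 0 to 39.7 CPM against 97.6 to 131. Dab1, the adaptor of reelin signalling, stood at 4.0 to 252 CPM (median 56.0) against 244 to 323, so 1 embryo, WT 2, reached into the layer VI-like range.

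The genotypes were compared next, beginning with the targeted gene. Gatad2b lies at chr3:90293178-90363407. Over all gated cells it stood at 142, 134 and 136 CPM in WT, at 94.1, 89.2, 91.3 and 96.1 in Het and at 48.8, 49.6 and 54.6 in KO, 3 separate ranges in the order of the labels. Its log2 fold change was -1.43 ± 0.05 for KO against WT (edgeR, adjusted p = 1.71e-08). Within the subplate-like cells it stood at 152, 148 and 114 CPM in WT, at 61.7, 81.5, 64.5 and 115 in Het and at 44.1, 37.8 and 62.5 in KO. There WT and KO did not overlap, whereas Het overlapped both. The log2 fold change of KO against WT was -1.51 ± 0.33, of the same size as in the gate, with an unadjusted p of 0.000525 and an adjusted p of 0.716 in edgeR's quasi-likelihood test over 5492 genes.

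The share of subplate-like cells among kept cells was low in every embryo. It was 0.222%, 0.182% and 0.0897% in WT 1 to 3, a mean of 0.164% ± 0.0679 (SD, n = 3). It was 0.154%, 0.276%, 0.178% and 0.202% in Het 1 to 4, a mean of 0.203% ± 0.0529 (SD, n = 4). It was 0.102%, 0.0971% and 0.0971% in KO 1 to 3, a mean of 0.0989% ± 0.00299 (SD, n = 3). The KO embryos lay below all Het embryos and among the WT embryos, since WT 3 was the lowest of the 10.

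These shares rested on 5 to 18 cells per embryo, and their exact binomial 95% intervals, which cover counting error only, were wide. The interval ran from 0.132% to 0.351% in WT 1 and from 0.0316% to 0.227% in KO 2. KO minus Het was -0.104 percentage points (two-sided exact permutation test over embryos, p = 0.0571, adjusted over 3 contrasts 0.171). KO minus WT was -0.0656 points (exact permutation test, p = 0.4, adjusted 0.514), and Het minus WT was 0.0382 points (exact permutation test, p = 0.514, adjusted 0.514). With these numbers of embryos the smallest p that the test allows is 0.0571 for a contrast with Het and 0.1 for KO against WT, so none of the 3 could pass 0.05. In cells thinned to 5000 UMIs each, without the shallower ones, the 3 differences were -0.0284, -0.0130 and 0.0154 points. They rested on 0 to 4 cells per embryo, and KO 1 (0.0181%) and KO 2 (0.0213%) lay above WT 2, WT 3 and Het 4. Of the 60 cells, 22 were in WT, 30 in Het and 8 in KO.

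**Figure D4:**
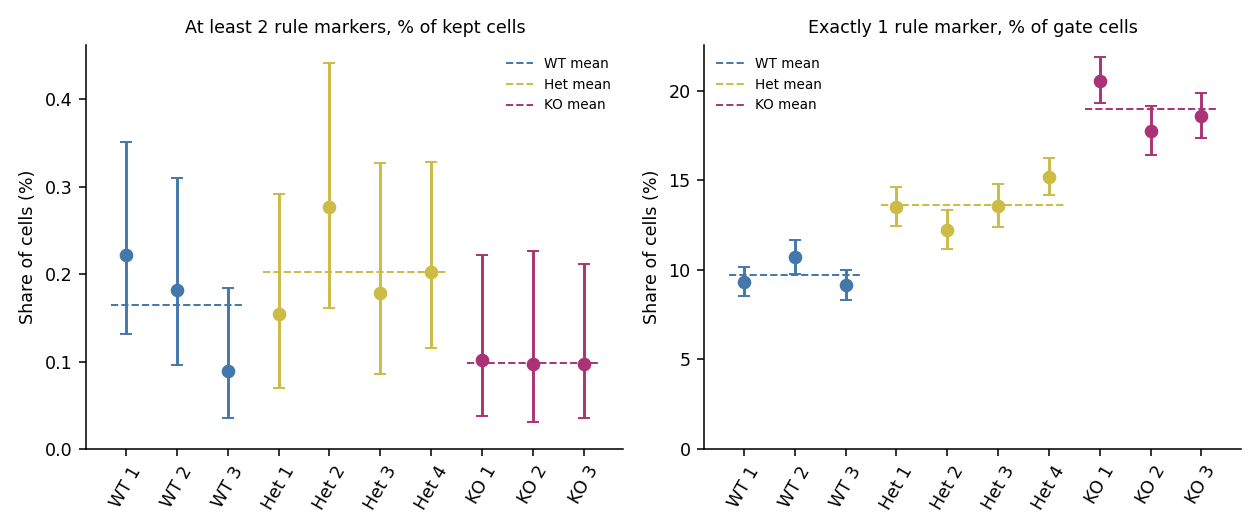
Left, subplate-like cells as percent of kept cells; right, cells with exactly 1 marker as percent of gated cells. Points are embryos with exact binomial 95% intervals, which cover counting error only, and dashed lines are genotype means. On the left the KO embryos lie at 0.0971% to 0.102%, within the WT range of 0.0897% to 0.222%, and on the right the 3 genotypes do not overlap, with KO highest at 17.7% to 20.6%.

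Cells with exactly 1 of the markers were ordered WT, Het, KO from lowest to highest. Among gated cells they made up 9.71% ± 0.85 in WT (SD, n = 3), 13.6% ± 1.22 in Het (n = 4) and 19.0% ± 1.45 in KO (n = 3), and the 3 ranges, 9.13% to 10.7%, 12.2% to 15.2% and 17.7% to 20.6%, did not overlap. Nearly all of this was Nxph4, detected in 8.95%, 10.5% and 8.50% of gated cells in WT 1 to 3 and in 20.2%, 17.3% and 17.95% in KO 1 to 3. Over all embryos Nxph4 was found in 30.1% of gated cells with at least 4 of the 7 radial glia markers, against 13.3% of the gate. The part of those cells in the order of genotypes was not tested. Gated cells with no marker had a median of 17306 to 20116 UMIs in KO embryos and of 13584 to 18265.5 in WT, and after thinning to 5000 UMIs, with shallower cells left out and the gate applied again to the thinned counts, the share with Nxph4 was 4.17% ± 0.19 in WT, 4.93% ± 0.94 in Het and 6.69% ± 0.30 in KO. Cells deep enough to thin numbered 5961 to 6583 per WT embryo (of 7159 to 8103 kept), 5137 to 6818 per Het embryo (of 5613 to 7917) and 4692 to 5525 per KO embryo (of 5147 to 6176). After thinning WT and Het overlapped, with Het 1 at 4.25% and Het 3 at 4.21% against 4.38% in WT 1, and KO stayed above both. Ctgf was detected in 0.549%, 0.854% and 0.566% of gated cells on average, and after thinning in 0.207%, 0.195% and 0.0679%, the last from 1 to 5 cells per embryo. Moxd1 was detected, without thinning, in 0.311%, 0.156% and 0.139%. The gate itself took a like share of kept cells in the 3 genotypes, 61.4%, 60.5% and 61.3%.

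Summed over all gated cells, where the rule does not fix their level, Nxph4 and Ctgf could be tested, while Cplx3 and Moxd1 did not pass the filter on low counts. Calls here needed a change of over 0.25 on the log2 scale beside an adjusted p under 0.05. Of 16521 genes 3.08% were called for Het against WT (1.44% higher, 1.64% lower), 25.8% for KO against WT (12.2% higher, 13.6% lower) and 7.58% for KO against Het (3.61% higher, 3.98% lower). Nxph4 stood at 8.95, 9.72 and 9.61 CPM in WT, at 10.7, 10.2, 10.7 and 13.2 in Het and at 15.0, 13.2 and 13.8 in KO. WT and KO did not overlap, and Het 4 lay just below the lowest KO embryo. Its log2 fold change was 0.57 ± 0.09 for KO against WT (adjusted p = 0.000608), 0.32 ± 0.08 for KO against Het (adjusted p = 0.0300) and 0.25 for Het against WT (adjusted p = 0.098, not called). With the library prefix as a covariate the 3 values were 0.90, 0.41 and 0.48. The call for KO against Het was lost without any 1 of 6 embryos, Het 1, 2 or 3 or a KO embryo.

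Ctgf stood at 0.985, 0.414 and 0.591 CPM in WT, at 0.621, 0.742, 1.24 and 0.556 in Het and at 0.240, 0.414 and 0.508 in KO. Its log2 fold change was -0.79 ± 0.40 for KO against WT (edgeR, adjusted p = 0.140) and -1.02 for KO against Het (adjusted p = 0.110), neither called, and the genotypes overlapped. Nxph4 and Ctgf, the pair that made most of the members, thus had fitted differences of opposite sign in KO, of which the one of Nxph4 passed.

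The further subplate genes were lower in KO more often than higher. Over the gate 7 of the 16 were lower and 2 higher for KO against WT, beside 13.6% and 12.2% of all genes, with a median log2 fold change of -0.22 against -0.003 over all genes. In the same fit 8 of 12 immediate early genes and 3 of 3 intermediate progenitor markers were higher, and 5 of 6 interneuron, 3 of 3 oligodendrocyte precursor and 3 of 3 erythroid markers were lower. Their part in the result was not tested. Unc5c stood at 30.2, 29.8 and 33.0 CPM in WT, at 23.7, 26.4, 25.3 and 22.8 in Het and at 13.0, 13.2 and 15.5 in KO, 3 ranges that did not overlap, and its log2 fold change was -1.16 ± 0.08. It was also the one of the 16 called for Het against WT (-0.34), a call that was lost with the library prefix as a covariate and without Het 1 or any 1 of the WT embryos. Gabra5 stood at 17.3 ± 2.27 CPM (SD) in WT, 12.1 ± 1.51 in Het and 7.05 ± 2.20 in KO, a log2 fold change of -1.29 in KO.

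Nr4a2 stood at 64.5, 70.2 and 68.0 CPM in WT, at 80.7, 72.3, 86.1 and 66.4 in Het and at 45.8, 47.2 and 43.0 in KO, with a log2 fold change of -0.58 for KO against WT. Kcnab1 (-0.51), Cdh10 (-0.54), Hs3st4 (-0.53) and Svil (-0.59) were the other lower calls. Serpini1 (0.56) and Lpar1 (1.33) were higher, and Lpar1 stood at 1.62, 1.41 and 2.30 CPM in WT and at 4.02, 3.98 and 5.29 in KO. With the library prefix as a covariate 5 of the 9 calls stayed, and Hs3st4, Kcnab1, Lpar1 and Svil were lost, the value of Svil going to 0.01. Svil was also lost without any 1 of the WT embryos, KO 1 or KO 2. For KO against Het the same genes but Svil were called, 6 lower and 2 higher, and all 8 stayed called within the one prefix that holds both genotypes (Het 1 to 3 and KO 1 to 3). In the fit of all 10 embryos Lpar1 lost this call without Het 2, Het 3, KO 2 or KO 3, Hs3st4 without KO 2 or KO 3, Kcnab1 without KO 2 and Gabra5 without KO 1. These genes are also expressed outside the subplate-like cells, which are 0.266% of the gate. The sums over the gate thus describe all gated cells together. Of the 40187 gated cells, 3633 held at least 4 of the 7 radial glia markers. Gated cells with none of the rule's markers held 2462 to 5771 CPM of the summed erythroid markers. The part of such cells and transcripts in these values was not tested.

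**Figure D5:**
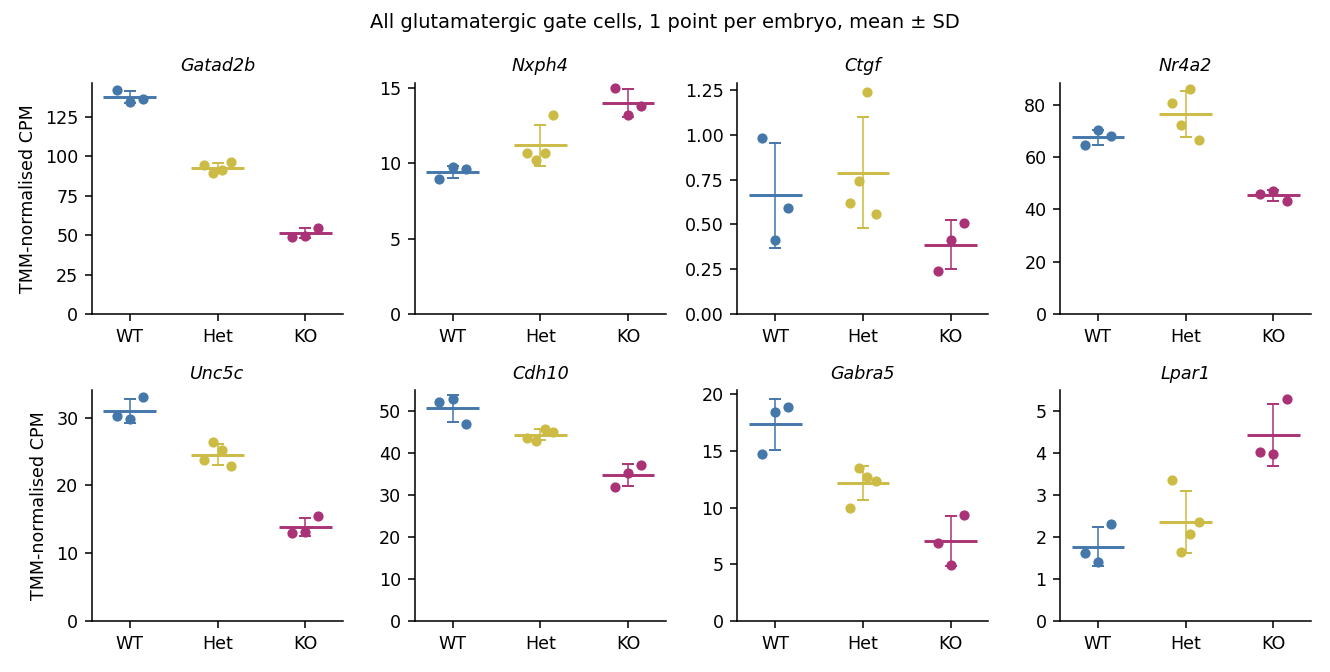
TMM-normalised CPM (y axis) over all gated glutamatergic cells for Gatad2b, the rule's Nxph4 and Ctgf, and 5 of the further subplate genes, 1 point per embryo by genotype, with the mean ± SD (n = 3 WT, 4 Het, 3 KO). Nxph4 is higher and Unc5c lower in the 3 KO embryos than in the 3 WT embryos without overlap, while Ctgf overlaps between genotypes.

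Within the subplate-like cells 5492 genes passed the filter, and edgeR's quasi-likelihood test called none of them (0%) for any of the 3 contrasts. At an unadjusted p under 0.05 there were 138 genes for Het against WT, 312 for KO against WT and 279 for KO against Het. If no gene differed, a fraction of about 0.05 of the 5492 genes would fall under it. DESeq2's Wald test called 1, 1 and 2. KO against Het had 17 calls with the library prefix as a covariate, 16 of 4225 genes within Het 1 to 3 and KO 1 to 3, and 17 without Het 4, all of them higher in KO. KO against WT had 4 calls with the prefix as a covariate and 2 without Het 4, and Het against WT had 0 and 7. Of the 16 further subplate genes 11 were tested and none was called, with a median log2 fold change of -0.24 for KO against WT. Of 12 genes that the study names for its single-cell data, all tested, none was called: for KO against WT the values ran from -1.51 for Gatad2b and -1.20 ± 0.52 for Grin2b to 1.03 ± 0.37 for Cdk2ap1 and 1.42 ± 0.78 for Pou3f2. Sox5 (0.86), Nfia (0.77), H3f3b (0.67), Bcl11b (0.47) and Robo1 (0.25) had positive values, and Arpp21 (-0.02), Frmd4a (-0.30) and Lmo4 (-0.67) negative ones. With 5 or 6 cells in each KO embryo, of which 1, 3 and 4 were among the 60, these values have standard errors of up to 0.78.

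Whether a genotype effect differed between subplate-like and other gated cells was tested as an interaction over 14996 genes, without a fold threshold. None was called for Het against WT (0%) and 2 for KO against WT (0.0133%), Cxxc4 and Ttr, each with an adjusted p of 0.00915 in edgeR's test. Cxxc4, which encodes the Wnt pathway inhibitor Idax, stood in subplate-like cells at 46.9, 25.7 and 34.7 CPM in WT, at 52.3, 48.2, 20.9 and 27.0 in Het and at 126, 170 and 66.3 in KO. In cells with no marker it stood at 45.3, 64.3 and 39.2 in WT and at 23.6, 20.5 and 30.1 in KO, the opposite order, and the difference of the effects was 2.73 ± 0.45 on the log2 scale. Both calls were lost with layer VI-like cells as the comparison, among cells of 10000 to 25000 UMIs and without KO 2, that of Cxxc4 also without WT 2 or the mixed droplets. Without Het 4 the counts were 45 for Het against WT and 15 for KO against WT. In KO 3 all 13 of the UMIs of Cxxc4 in subplate-like cells came from 1 cell, and in KO 1 and KO 2 the richest cell gave 13 of 19 and 12 of 25. Ttr, the transthyretin gene of choroid plexus, had 16, 2 and 0 UMIs in subplate-like cells of WT embryos and 0, 2 and 0 in KO, so its value rests on few UMIs there.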

How the data were processed

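Cortices of 10 E16.5 mouse embryos were measured, 1 library each (3 WT, 4 Het, 3 KO). The deposited files are UMI counts per gene and cell, made by the authors with Cell Ranger (version 6.0.2 in the submitters' processing notes) and not normalized. Cells were kept and gated as stated, and counts were summed per embryo and cell set. Sums were tested with edgeR 4.0.16 (filterByExpr, TMM, glmQLFit and glmQLFTest), with all 10 embryos in each fit and p-values adjusted over all genes tested, and with DESeq2 1.42.0 and limma 3.58.1 as alternatives. The genotype fit was planned with at least 20 cells per embryo. No embryo had 20, so it was run without a minimum. Shares were compared by exact permutation over embryos (SciPy 1.17.1). Mixed droplets were scored with Scrublet in scanpy 1.11.5, marking 0.8% per 1000 barcodes, since its automatic threshold marked 0.0128% to 2.2% of cells per library. Levels in CPM follow 3′ UMIs, 1 per transcript, and need no length. Each SE given with an edgeR log2 fold change is its absolute value divided by the square root of the test's F statistic. The fitting scripts were tested on simulated counts.

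The members and gene lists were chosen with earlier results of these data known. Named genes were the 10 largest called changes in each direction with at least 20 CPM in one set and the same direction in every embryo, genes that the study names for its single-cell data, and list members. Whether replicate numbers pair the embryos was not settled: correlations of same-numbered deviations ran from -0.217 to 0.259. The study describes the sequenced Het and WT embryos as littermates, but which embryos shared a litter is not given in the sources used here, so p-values measure the spread between these embryos. One voltage-gated channel result is not reported here.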

Additional observations from a re-analysis of the deposited data

Results flagged for a closer look

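Among 50 sets of 4 Het embryos examined, 3 had 1 embryo far from the other 3 by Dixon's ratio, and chance alone flags about 1 in 20. The share of kept cells that met the rule and carried Cajal-Retzius markers was 0.0976% in Het 2, from 6 cells, against 0.0342% to 0.0379% in the other Het embryos. Lmo3 over all gated cells stood at 76.6 CPM in Het 1, against up to 101 in the other Het embryos. Drd1 in subplate-like cells stood at 62.9 CPM in Het 3, against 1.6 to 11.02 in the other Het embryos.

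The effect of KO against WT differed between subplate-like and other gated cells for 2 genes by the interaction test. For Cxxc4 the difference was 2.73 on the log2 scale, and for Ttr it was 13.9. Ttr was at 1177 CPM in cells with no marker of WT 1 and at 158 in WT 2, where 11006 UMIs came from 1 cell, and its defining tissue, the choroid plexus, is not part of the cortex. Its subplate-like UMIs numbered 0 to 16 per embryo, so the fitted value is no bound on a fold.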

How the results depend on the processing

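Of 225 alternative values of the counts and shares, 178 were labelled as unchanged. For a count this meant staying within 1.5 times the main count. For a share difference it meant the same sign and the same side of the cut-off on p. With these numbers of embryos the exact test could not pass that cut-off, so keeping the sign was enough. The label therefore does not tell whether the size of a share difference held. Of 1244 values for single genes, 1193 kept direction and side of the threshold, 40 lost a call, 5 gained one and 6 changed sign. Where a count or sign below moved, the cause was not tested, except that fits with fewer embryos or cells had fewer data.

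For subplate-like cells against gated cells with no marker, 1285 calls became 832 among cells of 10000 to 25000 UMIs and 1106 to 1290 without single embryos. Against layer VI-like cells, 704 became 1135 without the filter on low counts, 341 among cells in this range of UMIs (154 higher, 187 lower), 421 in WT embryos alone, 409 by limma and 619 to 732 without single embryos. Without the 47 cells, Cacna2d2 turned to -0.27 and -0.23 in these comparisons, Reln to -0.28 and Serpini1 to 0.32, and Serpini1 was 0.0924 in WT embryos alone.

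Within subplate-like cells the 3 contrasts, Het against WT, KO against WT and KO against Het, had no call. They had 52, 76 and 115 without the filter and 1, 1 and 2 by DESeq2. KO against WT had 4 and KO against Het 17 with the library prefix as a covariate. KO against Het had 16 within one prefix, 1 without mixed droplets and 1 without the 47 cells. Without single embryos the counts ran from 0 to 7, 0 to 2 and 0 to 17, each highest without Het 4.

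The interaction counts for Het against WT (0) and KO against WT (2) became 13 and 26 without the filter, 13 and 19 among cells of 10000 to 25000 UMIs, and 1 and 0 against layer VI-like cells. KO against WT had 12 without mixed droplets and 21 without the 47 cells. Without single embryos they ran from 0 to 45 and 0 to 15, highest without Het 4. For KO against WT the count was 8 without WT 1 or KO 1, 4 without Het 3 and 0 without KO 2.

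Over the gate, 1 of the rule's markers was called for KO against Het (0 to 1 without single embryos) and for KO against WT (1 to 2). Svil went to 0.0094 for KO against WT with the library prefix as a covariate. The share difference of Het against WT was -0.0051 points with Ctgf left out of the rule. Without single embryos it ran from 0.0008 to 0.067 (lowest without WT 3), KO against WT from -0.103 to -0.0368 (ends without WT 3 and WT 1) and KO against Het from -0.12 to -0.0792.

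Whether replicate numbers pair the embryos was not settled, and the main fits did not use them. With the number as a block, the counts within subplate-like cells were 11, 1 and 28, and the share differences 0.0384, -0.0656 and -0.104 points.

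With at least 3 of 4 markers 2 cells were left, so the gene fits could not be fitted. The 5 to 18 cells per embryo limit what can be told of genes and shares.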
